A study of Homo sapiens with 4 samples.

Results

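Integrins are the receptors by which epithelial cells hold on to the extracellular matrix. Each is a dimer of an alpha and a beta subunit, and the pairing sets which matrix protein is bound: ITGAV pairs with several beta subunits and binds vitronectin, fibronectin and latent TGF-beta, ITGA5 pairs with ITGB1 as the main fibronectin receptor, ITGA3 and ITGA6 bind laminins, and ITGA2 with ITGB1 binds collagen. Inside the cell the beta tails recruit talin, kindlin and focal adhesion kinases, while ITGA6 with ITGB4 anchors keratin filaments at hemidesmosomes.

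The 10 integrin subunits described here are ITGAV, ITGA2, ITGA3, ITGA5, ITGA6, ITGB1, ITGB3, ITGB4, ITGB5 and ITGB6. Their members on the array are the probesets whose only gene symbol in the platform annotation is one of these, 267 of the 216780 probesets with 1 symbol. A probeset is a small group of array probes, usually within a single exon. The subunits were chosen by name with the changes between the groups already known, so their changes and calls below are a description and support nothing further. The mimic group (2 arrays) received the p-27-5p mimic, which imitates an artificial microRNA, at 200 nM, and the control group (2 arrays) received a pre-miR negative control, whose dose the labels do not give. Both groups were T-47D, a luminal breast cancer line that carries estrogen and progesterone receptors, grown in DMEM with 10% FBS and transfected by TurboFect, and the labels give no time of harvest. Whether the 2 arrays within a group are separate cultures is not stated, so every p-value rests on array-to-array spread that may be purely technical. All levels are log2 values on Affymetrix exon arrays, a gene's level is the mean of its probesets at or above the table's 25th percentile, and changes are mimic minus control on that scale with the SE of limma's fit across all genes.

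The identity of the cells was checked with 12 luminal genes, among them ESR1, GATA3 and KRT8, whose group means lay between 8.77 and 12.14 in mimic arrays and between 8.97 and 12.40 in control arrays. Of these 12 genes 9 were lower by value in mimic arrays. Over all 15719 genes tested, 7806 were lower and 7913 higher by value. The groups stood apart for 7 of the 12 in the lower direction (29.5% of all genes) and for 1 in the higher direction (20.5%). The median change was -0.20, and 4 were lower at an unadjusted p under 0.05 (12.8% of all genes), namely PGR (-0.60), KRT19 (-0.48), ESR1 (-0.42) and SPDEF (-0.38), named after their values were seen. The 13 measured genes of liver and neurons that serve as background lay between 4.34 and 6.43 in mimic arrays and between 4.07 and 6.85 in control arrays, with a median change of 0.20. Of 6 basal or mesenchymal genes and 4 endothelial genes all were higher by value in mimic arrays, with median changes of 0.17 and 0.21. The median level of 8 fibroblast genes was 5.25 and 5.06 in mimic arrays and 5.08 and 4.71 in control arrays, and 8 of 8 were higher by value in the mimic arrays. For 7 leukocyte and platelet genes the median was 5.53 and 5.68 in mimic arrays and 5.25 and 5.35 in control arrays, with 6 of 7 higher by value. Limma called none of these markers, and their part in the integrin values was not tested. In bulk RNA, fewer cells carrying a transcript and less transcript per cell cannot be told apart.

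Of the 10 subunits, limma called 2 at an adjusted p under 0.05, against 2.31% of the 15719 genes tested in either direction. ITGAV was the 1 called lower, against 0.789% of all genes, and ITGA5 the 1 called higher, against 1.52%. ITGAV encodes the shared alpha subunit of the vitronectin and TGF-beta-activating receptors. It had 8.02 and 8.04 in mimic arrays, against 9.11 and 9.14 in control arrays. The arrays of each group differed by far less than the groups did. The change was -1.10 (SE 0.117, 95% confidence interval from -1.39 to -0.80), which makes the level 2.14-fold lower (limma adjusted p = 0.0156). Among all genes tested, 52 had a larger decrease. Without mimic replicate 1 or mimic replicate 2 the change was -1.09 and -1.11 but the call was lost. Without control replicate 1 or control replicate 2 the change was -1.11 and -1.08, and the call stayed.

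ITGA5, the alpha subunit of the fibronectin receptor, had 6.91 and 6.75 in mimic arrays, against 5.82 and 5.89 in control arrays. Both mimic arrays lay above both control arrays. The change was 0.97 (SE 0.128, 95% confidence interval from 0.65 to 1.30), which makes the level 1.96-fold higher (limma adjusted p = 0.0309), and 258 genes had a larger increase. The control level of 5.86 ± 0.053 (SD, n = 2) lay within the range of the liver and neuron genes. Of those genes only SYT1 (6.85 in control arrays) lay above it. Without mimic replicate 1 or mimic replicate 2 the change was 0.90 and 1.05 but the call was lost. Without control replicate 1 or control replicate 2 the change was 0.94 and 1.01, and the call stayed.

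**Figure D1:**
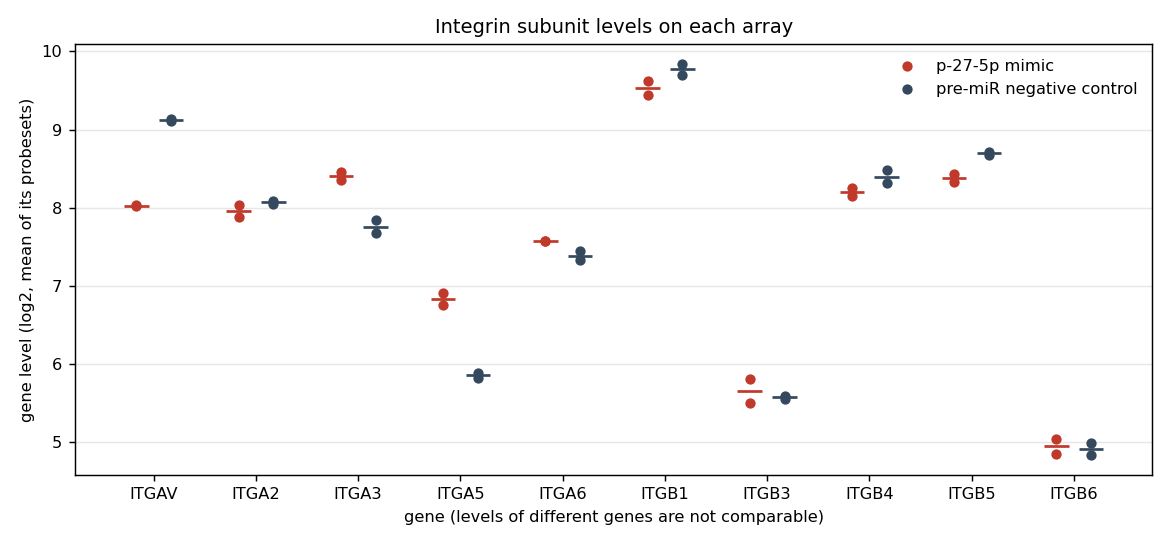
Log2 level of each of the 10 integrin subunits on the 2 mimic arrays (red, left) and the 2 control arrays (dark blue, right), with the group mean as a bar. ITGAV is lower and ITGA5 higher in mimic arrays with gaps of about 1 log2 unit, while the groups overlap for ITGB3 and ITGB6.

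The promoter windows of these called subunits, from 250 bases before to 50 after the RefSeq start, are shown because they are the letters next to the transcripts that differed. The ITGAV window is chr2:186589806-186590105 on the plus strand and the ITGA5 window is chr12:54419217-54419516 on the minus strand, both in GRCh38.p14.
ITGAV: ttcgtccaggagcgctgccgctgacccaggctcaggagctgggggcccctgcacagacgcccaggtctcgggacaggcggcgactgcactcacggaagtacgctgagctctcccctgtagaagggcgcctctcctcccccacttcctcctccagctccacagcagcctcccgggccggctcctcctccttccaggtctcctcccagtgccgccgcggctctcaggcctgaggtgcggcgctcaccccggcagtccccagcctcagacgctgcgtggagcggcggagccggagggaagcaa
ITGA5: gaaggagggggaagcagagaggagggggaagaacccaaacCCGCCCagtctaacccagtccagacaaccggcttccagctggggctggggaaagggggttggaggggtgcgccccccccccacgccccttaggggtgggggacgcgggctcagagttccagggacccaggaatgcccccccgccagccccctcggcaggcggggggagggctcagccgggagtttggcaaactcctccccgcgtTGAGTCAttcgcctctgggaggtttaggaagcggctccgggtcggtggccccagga
Capitals mark motif matches on either strand. In ITGA5 these are 1 Sp1 box (GGGCGG, read here on the opposite strand) and 1 AP-1 site (TGANTCA), which do not overlap each other. Of 35114 RefSeq promoter windows of this length, 45% hold the Sp1 box and 7.71% the AP-1 site. The ITGAV window held none of the letters searched, which also included the TATA box (TATAAA, in 11.5% of windows), the ETS core (CCGGAA, 17.2%), the GAS element of STAT factors (TTCNNNGAA, 7.66%) and the core of the interferon-stimulated response element (3.57%). RefSeq lists another ITGAV start, at chr2:186599955-186600254, whose window also held none. Across the 12 windows of the 7 subunits matched in the table, 8 held the Sp1 box, 1 the AP-1 site, 3 the ETS core, 2 the TATA box, 1 the interferon element (a window of ITGB5) and 0 the GAS element. The windows of ITGA6 overlap, and an Sp1 box in the shared stretch counts in each. ITGA3, ITGB3 and ITGB4 were not matched. A match in these windows is a description of letters and no evidence of binding.

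The decrease of ITGAV was present along the whole set of its probesets. All 31 lay above the intensity filter and were lower by value, against 50.9% of all probesets, and on each of the 31 both mimic arrays were below both control arrays, against 23.6% of all 216780 probesets. The changes ran from -2.54 to -0.59 with a median of -1.002. The largest decrease was on a probeset with 4.98 and 4.45 in mimic arrays and 7.14 and 7.37 in control arrays. The smallest was on a bright probeset with 10.87 and 10.86 in mimic arrays and 11.59 and 11.31 in control arrays. On its brightest probeset ITGAV had 10.94 and 10.85 in mimic arrays and 11.72 and 11.28 in control arrays, a change of -0.61 that limma did not call among brightest probesets (adjusted p = 0.312). With the gene level taken as the median of its probesets on each array, the ITGAV change was -0.85 (adjusted p = 0.0959). In the fit on single probesets, limma called 2 of the 240 integrin probesets that passed the filter, both of ITGAV and both lower, against 0.918% of 163774 called in either direction and 0.0946% called lower. With the replicate block, and without any 1 of the 4 arrays, limma called 0 integrin probesets. Probesets of a gene read the same RNA and are not replicates of each other.

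The probesets of ITGA5 were higher by value on 29 of 29, against 49.1% of all probesets, and on 26 of them both mimic arrays lay above both control arrays, against 20.6% of all probesets. The changes ran from 0.01, on a probeset below the intensity filter, to 1.91, with a median of 0.94. The probeset with the largest increase had 8.62 and 8.72 in mimic arrays and 6.49 and 7.02 in control arrays. The brightest had 9.06 and 8.79 in mimic arrays and 7.69 and 7.43 in control arrays. Its change of 1.36 had an adjusted p of 0.107 when each gene was represented by its brightest probeset. With the gene level taken as the median of its probesets on each array, the ITGA5 change was 0.73 (adjusted p = 0.171).

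**Figure D2:**
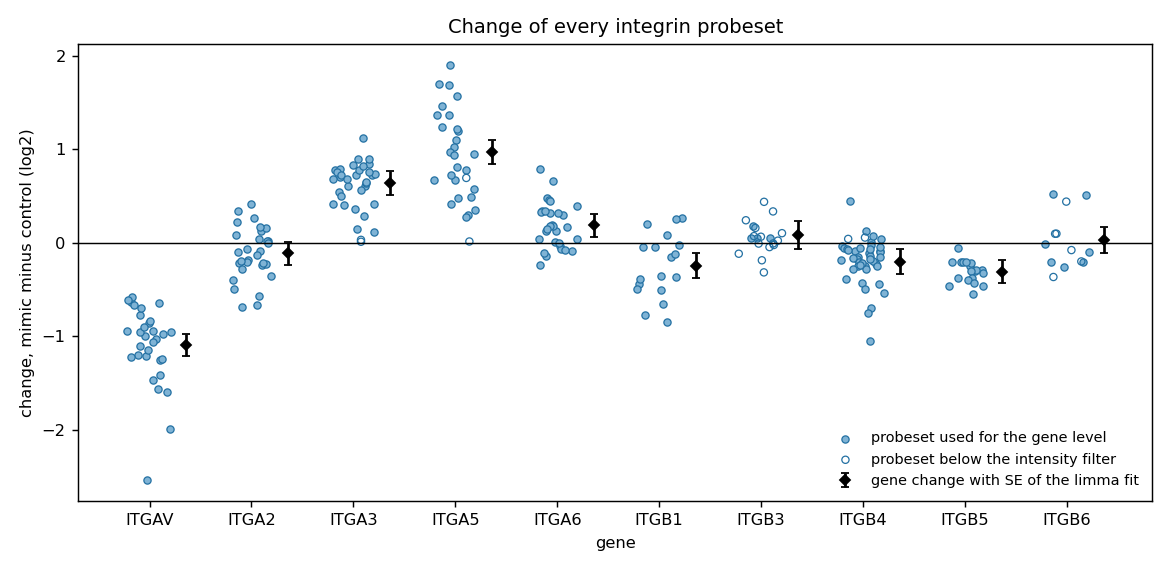
Change (mimic minus control, log2) of each of the 267 integrin probesets by gene, filled where the probeset passed the intensity filter and open where it did not, with the gene's change and SE of the limma fit as a black diamond. All 31 ITGAV probesets lie below 0 and all ITGA5 and ITGA3 probesets above it. All 19 ITGB5 probesets also lie below 0, down to -0.55, and the other subunits have probesets on both sides.

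Among the laminin-binding subunits, ITGA3 stood closest to the called genes. ITGA3 had 8.35 and 8.45 in mimic arrays, against 7.68 and 7.84 in control arrays. The groups did not overlap. The change was 0.64 (SE 0.131) and missed the limma threshold (adjusted p = 0.0815). It also missed with only probesets at or above the table's median (0.0693), equal array medians (0.0772) and the replicate block (0.0539). It missed with the median of probesets (0.116) and the brightest probeset (0.204) as well. It passed with quantile normalization (0.0422), without a filter (0.0195), with an intensity trend (0.0123) and without control replicate 2 (0.0454). It missed the threshold without control replicate 1 (0.0722), mimic replicate 1 (0.339) or mimic replicate 2 (0.345). By value 34 of 34 ITGA3 probesets were higher in mimic arrays, and the groups stood apart on 29 of them (49.1% and 20.6% of all probesets). The changes ran from 0.01 to 1.12 with a median of 0.69, and the brightest probeset had 10.06 and 10.05 in mimic arrays against 9.46 and 9.37 in control arrays.

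ITGA6, which forms laminin receptors with ITGB1 or ITGB4, had 7.58 and 7.57 in mimic arrays, against 7.33 and 7.45 in control arrays. The change of 0.19 (SE 0.122, adjusted p = 0.453) was not called. Its 30 probesets were split, with 22 higher and 8 lower by value and the groups apart on 13, all of them higher (20.6% of all probesets). ITGB4, its hemidesmosome partner with an unusually long cytoplasmic tail, had 8.15 and 8.25 in mimic arrays, against 8.32 and 8.48 in control arrays. The ITGB4 change of -0.20 (SE 0.130, adjusted p = 0.453) was not called either, and it was -0.12 without control replicate 2. Of 44 ITGB4 probesets 37 were lower by value. The groups stood apart on 17 in the lower direction (23.6% of all probesets) and on 2 in the higher direction (20.6%), and the changes ran from -1.05 to 0.45. The values of ITGA6 and ITGB4 thus had opposite signs, and neither passed the test.

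ITGA2, the alpha subunit of the collagen receptor, had 8.03 and 7.88 in mimic arrays, against 8.05 and 8.08 in control arrays. Its change of -0.11 (SE 0.126, 95% confidence interval from -0.43 to 0.20) was not called, and it was -0.19 without mimic replicate 1 and -0.039 without mimic replicate 2. The 30 ITGA2 probesets disagreed in sign, with 18 lower and 12 higher by value and a range from -0.68 to 0.42. The groups stood apart on 10 in the lower direction (23.6% of all probesets) and on 1 in the higher direction (20.6%). On the brightest of the 30 the sign was turned, at 0.15.

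Limma called none of the 5 beta subunits, whose changes lay between -0.31 and 0.09. ITGB1, the partner of ITGA2, ITGA3, ITGA5 and ITGA6 and also of ITGAV, had 9.44 and 9.62 in mimic arrays, against 9.70 and 9.84 in control arrays. Its change was -0.24 (SE 0.136, 95% confidence interval from -0.59 to 0.10, adjusted p = 0.387), and -0.16 without mimic replicate 1. The 18 ITGB1 probesets ran from -0.85 to 0.27. The most lowered of them had 8.95 and 8.83 in mimic arrays and 9.53 and 9.94 in control arrays, while the brightest had 12.05 and 12.15 in mimic arrays and 12.10 and 12.18 in control arrays. The groups stood apart on 8 of 18, all lower in mimic arrays (23.6% of all probesets), and overlapped on 10.

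ITGB5, a partner of ITGAV in the vitronectin receptor, had 8.44 and 8.33 in mimic arrays, against 8.67 and 8.71 in control arrays. The groups did not overlap, and the change of -0.31 (SE 0.122) had an adjusted p of 0.241. All 19 ITGB5 probesets were lower by value, from -0.55 to -0.05 with a median of -0.30, and the groups stood apart on 13 (50.9% and 23.6% of all probesets). ITGAV and ITGB5 were thus the subunits with every probeset lower in mimic arrays, with medians of -1.002 and -0.30.

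ITGB3 and ITGB6, the other partners of ITGAV on the list, had little signal. ITGB3, the beta subunit of the vitronectin receptor of platelets and osteoclasts, had 5.82 and 5.50 in mimic arrays, against 5.60 and 5.55 in control arrays, with a change of 0.09 (SE 0.152). Of 19 ITGB3 probesets 15 lay below the intensity filter. A single probeset, with 9.20 and 9.21 in mimic arrays and 9.26 and 9.03 in control arrays, stood far above the rest, while the other 18 had means over the 4 arrays between 2.74 and 4.86. Without that probeset the ITGB3 level was 4.69 and 4.27 in mimic arrays and 4.38 and 4.39 in control arrays. ITGB6, the epithelial subunit that activates TGF-beta together with ITGAV, had 5.04 and 4.85 in mimic arrays, against 4.99 and 4.84 in control arrays. Of its 13 probesets 6 lay below the filter, and the change was 0.03 (SE 0.139). The groups overlapped for both genes, and leaving out 1 array turned the sign of each (ITGB3 -0.070 and ITGB6 -0.062 without mimic replicate 1, ITGB6 -0.044 without control replicate 2).

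**Figure D3:**
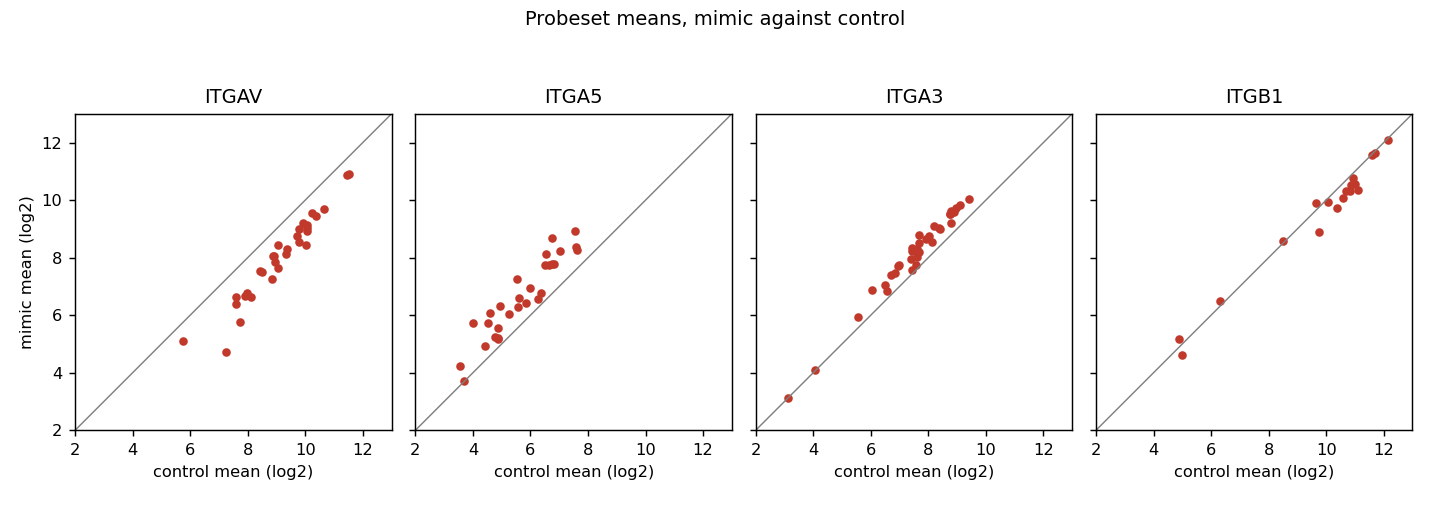
Mean log2 value of each probeset in mimic arrays (vertical axis) against control arrays (horizontal axis) for ITGAV, ITGA5, ITGA3 and ITGB1, with the line of equal values in grey. ITGAV probesets lie below the line at every level, ITGA5 and ITGA3 probesets lie on or above it, and ITGB1 probesets lie near it, with 14 of 18 below.

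Counted over all 10 subunits, both mimic arrays lay above both control arrays for 3 (20.5% of all genes) and below them for 5 (29.5% of all genes), and the groups overlapped for 2. The median change of the subunits was -0.04, against 0.0024 over all genes tested. The replicate number as a block left the calls of ITGAV (adjusted p = 0.0292) and ITGA5 (0.0474) in place and added none among the 10.

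The remaining 16 integrin subunits, most of them typical of leukocytes, muscle or mesenchyme, were set beside these. Of them 15 were tested and limma called 0, with 1 higher and 2 lower at an unadjusted p under 0.05, a level that 20.4% of genes reached in either direction, 7.65% higher and 12.8% lower. Their median change was 0.10. ITGB8, a further partner of ITGAV that binds latent TGF-beta, had 5.82 and 5.54 in mimic arrays, against 5.02 and 4.83 in control arrays, a change of 0.76 (SE 0.158, adjusted p = 0.0857, and 0.0493 with the replicate block). Without control replicate 1 it was 0.85 (adjusted p = 0.0156), and with each other array left out it lay between 0.61 and 0.90 and was not called (adjusted p = 0.406 without mimic replicate 1, 0.180 without mimic replicate 2 and 0.0890 without control replicate 2). ITGA10, a collagen-binding subunit of cartilage, had 5.28 and 5.20 in mimic arrays, against 5.82 and 5.91 in control arrays, a change of -0.63 (SE 0.122, adjusted p = 0.0751). Without control replicate 1 it was -0.67 (adjusted p = 0.0377), and with each other array left out it was not called (0.350 without mimic replicate 1, 0.339 without mimic replicate 2 and 0.115 without control replicate 2). The group means of both genes lay within the range of the liver and neuron genes. Of those genes only SYT1 (6.85 in control arrays) lay above the control mean of ITGA10 (5.87).

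Genes that work with integrins were described from 7 lists with 111 tested genes in all. Of these limma called 1 as higher (1.52% of all genes) and 0 as lower (0.789%). The median change of the 111 was 0.04. At the unadjusted level 9 were higher (7.65% of all genes) and 11 lower (12.8%). The called gene was PLAUR, the urokinase receptor, which sits beside integrins in the membrane. PLAUR had 5.43 and 5.55 in mimic arrays, against 4.69 and 4.63 in control arrays, a change of 0.83 (SE 0.124) with a limma adjusted p of 0.0436. Its group means lay within the range of the liver and neuron genes. The call was lost without mimic replicate 1 (0.89, adjusted p = 0.184), without mimic replicate 2 (0.77, adjusted p = 0.226) and with equal array medians (adjusted p = 0.0509), with the median of probesets (0.71, adjusted p = 0.135), and its brightest probeset had a change of 0.16. Among the other 12 membrane partners, CD151, the tetraspanin that binds the laminin receptors, had -0.52 (SE 0.119, adjusted p = 0.101).

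The 31 tested matrix ligands had a median of 0.08, with 2 higher and 2 lower at that unadjusted level. Of all genes 7.65% were higher and 12.8% lower at that level. L1CAM, an adhesion protein that binds RGD-reading integrins, had 0.70 (SE 0.142, adjusted p = 0.0813). Its adjusted p was 0.0249 without control replicate 2, 0.0647 without control replicate 1, 0.303 without mimic replicate 1 and 0.325 without mimic replicate 2. NPNT, a matrix ligand known from kidney development, had -0.54 (SE 0.119, adjusted p = 0.0952). Of 29 activators and adaptors at the cytoplasmic tails 2 were higher and 0 lower at that level, with a median of 0.03. TNS1, a tensin that links integrin tails to actin, had 0.57 (SE 0.141, adjusted p = 0.114). The adjusted p was 0.0383 without control replicate 1, 0.223 without control replicate 2, 0.521 without mimic replicate 1 and 0.313 without mimic replicate 2. Its relative TNS3 had 0.33 (adjusted p = 0.213). The mimic and control means of TNS1 (5.64 and 5.07) lay within the range of the liver and neuron genes. The control mean of L1CAM (6.58) did as well, with only SYT1 (6.85) of those genes above it.

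Of 6 tested inhibitors of integrin activation 1 was higher and 2 were lower at that level, with a median of -0.15. The shares of all genes at that level were 7.65% higher and 12.8% lower. SHARPIN, which binds alpha tails, had -0.37 (adjusted p = 0.175), and DOK1, which competes with talin, had -0.38 (adjusted p = 0.207). Of 11 adhesion kinases and their scaffolds 2 were higher and 0 lower (7.65% and 12.8% of all genes), with a median of 0.07. The Src family kinases LYN and FYN had 0.48 (adjusted p = 0.128) and 0.44 (adjusted p = 0.137). The mimic and control means of FYN (5.02 and 4.58) and DOK1 (4.91 and 5.29) lay within the range of the liver and neuron genes. The control mean of LYN (6.07) did as well, with only SYT1 (6.85) of those genes above it. Of 6 hemidesmosome genes 0 were higher and 1, CD151, was lower, with a median of -0.03, and PLEC, the plectin that ties ITGB4 to keratin, had -0.29 (adjusted p = 0.265).

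Of 16 genes of integrin trafficking 5 were lower and 0 higher at an unadjusted p under 0.05, with a median of -0.19, against 12.8% of all genes lower and 7.65% higher at that level, and limma called 0. RAB25, the epithelial recycling GTPase that binds ITGB1, had 10.64 and 10.72 in mimic arrays, against 11.23 and 11.33 in control arrays. The change was -0.61 (SE 0.123, adjusted p = 0.0813). With the brightest probeset RAB25 had -0.22 (adjusted p = 0.494), and with the median of probesets -0.51 (adjusted p = 0.226). Its adjusted p was 0.0410 without control replicate 1, 0.134 without control replicate 2, 0.428 without mimic replicate 1 and 0.301 without mimic replicate 2. SNX17, the sorting nexin that returns ITGB1 to the surface, had 6.59 and 6.60 in mimic arrays, against 7.04 and 7.26 in control arrays, a change of -0.55 (SE 0.135, adjusted p = 0.112). Without control replicate 1 it was -0.67 (adjusted p = 0.0377) and without control replicate 2 it was -0.44 (0.246), and the adjusted p was 0.462 and 0.382 without mimic replicate 1 and mimic replicate 2.

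**Figure D4:**
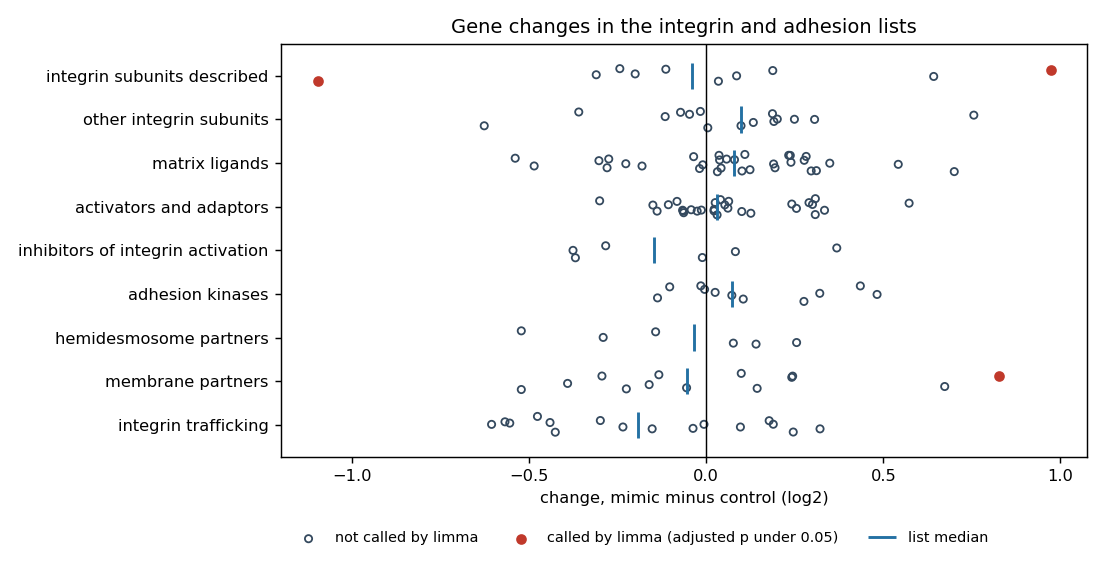
Change of each gene (mimic minus control, log2) in the 10 integrin subunits, the other integrin subunits and the 7 adhesion lists, filled red where limma called the gene, with the list median as a blue bar. The red points are ITGAV, ITGA5 and PLAUR.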

How the data were processed

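RNA of 2 mimic and 2 control arrays of T-47D cells was read on exon arrays. The authors deposited 1 log2 value per probeset and array for 232479 probesets. Per the submitters' processing notes, Partek, RMA and the build hg18 were used, with no versions, roles or order of steps. Interquartile ranges of the deposited log2 values were 4.18 and 4.32 on mimic arrays and 4.25 and 4.52 on control arrays, so the spread was not equal. The number of arrays limits the precision.

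Probesets were named by the platform annotation held by GEO, with old symbols replaced through RefSeq (216780 probesets with 1 symbol, 2335 with several, 13364 unnamed). None of the 267 integrin probesets needed an update. Gene levels are means of the probesets whose mean over the 4 arrays reached 4.08, the table's 25th percentile, which left 163774 probesets and 15719 genes, including 240 of the 267 integrin probesets and all 10 genes. Mimic was set against control by limma (version 3.58.1, R 4.3.3), with lmFit, eBayes, two-sided p-values and Benjamini-Hochberg adjustment over all genes. The fit had 2 residual degrees of freedom, 5.29 after moderation. The procedure was tested on simulated data with independent arrays and larger changes than those of the 10 subunits. That test does not cover changes of their size. Files were read with the data.table package (1.17.8), and plots were made with matplotlib 3.10.9 in Python 3.11.15. Levels of different probesets or genes were not set against each other as amounts.

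The subunits and lists were chosen with earlier results of these data known. The genes named are the 10 subunits and, of each other list, those past the threshold and the 2 with the smallest p. The design text calls the mimic and control samples paired. Same-numbered arrays deviated together (r = 0.435 across genes, which are not independent replicates), but the labels do not say what a number shares, so the block by replicate number is an alternative. Further alternatives were equal array medians, quantile normalization, a stricter filter or none, the median or the brightest probeset, an intensity trend, and each array left out. Promoter windows are from RefSeq (GRCh38.p14). No probe positions or target sites of the mimic were analysed here.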

Additional observations from a re-analysis of the deposited data

How the results depend on the processing

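Over the alternatives, 101 recomputed changes of the 10 subunits kept direction and side of the threshold, 8 lost the call, 4 gained it and 6 changed sign. ITGAV stayed between -1.11 and -0.61 (adjusted p from 0.000375 to 0.312) and ITGA5 between 0.73 and 1.36 (0.00183 to 0.182) over all settings. The sign turned for ITGA2 with the brightest probeset (0.15), for ITGB3 without mimic replicate 1 (-0.070, with 0.24 without mimic replicate 2), and for ITGB6 with quantile normalization (-0.020), the median of probesets (-0.078), without mimic replicate 1 (-0.062, with 0.13 without mimic replicate 2) and without control replicate 2 (-0.044). ITGB6 has no value with probesets above the table's median, since none remained. Limma called 363 genes in all, 1433 without a filter, 122 with the brightest probeset, 1594 with an intensity trend and 172 to 1691 with 1 array left out, where the lone array of a group is assumed to vary like the other group. With the replicate block 498 genes were called, and the pairing left both integrin calls in place, took the calls of integrin probesets to 0 and added ITGB8 as 1 of the other subunits. Of the integrins, 0 were called with the median or the brightest probeset, and 0 to 3 with 1 array left out. Of the other subunits 1 was called with quantile normalization, 2 without a filter and 0 to 2 with 1 array left out. Of the adhesion genes 2 were called with quantile normalization, 9 without a filter, 9 with an intensity trend, 0 to 7 with 1 array left out, and 0 with equal medians, the stricter filter, the median or the brightest probeset. Single probesets called numbered 1503, 4715 with an intensity trend and 618 to 928 with 1 array left out. Of the integrin probesets 8 were called with the stricter filter, 28 with the trend and 0 with any array left out. The cause of these shifts was not tested. Genes near the background level have little signal over it.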

Other observations

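Another 4 probesets are annotated to both ITGB3 and C17orf57 and entered no gene level. Their mean values were 5.55, 4.81, 4.81 and 7.37 in mimic arrays, against 6.13, 5.65, 4.95 and 7.70 in control arrays. The groups stood apart on 3 of the 4, lower in mimic arrays, with changes of -0.58, -0.84 and -0.33. Among probesets with 1 symbol, 23.6% stood apart in that direction. On the other shared probeset, with -0.14, the groups overlapped. Which of the annotated genes these values come from was not tested, and the 19 probesets naming ITGB3 alone had a median change of 0.05.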
